A study of Mus musculus with 8 samples.

Results

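The 10 genes described here mark blood vessel endothelium or encode its growth factors, and were compared in brown adipose tissue with and without Hdac3. They are the 10 rows of the deposited expression table with the symbols Pecam1, Cdh5, Emcn, Eng, Kdr, Flt1, Tek, Tie1, Vegfa and Vegfb, out of 11234 listed genes, and all 10 were present. The knockout group was 4 libraries (replicates 4, 5, 19 and 20) from mice with a loxP-flanked Hdac3 gene and Cre recombinase expressed from the adiponectin promoter, an adipocyte promoter. The control group was 4 libraries (replicates 11, 12, 13 and 14) from mice with the loxP-flanked gene, for which the labels name no Cre. All animals were C57BL/6 males, killed at 12 weeks of age at 5 PM (zeitgeber time 10) after 2 weeks at 29 °C, close to thermoneutrality, and ribosomal RNA was depleted before sequencing of the interscapular depot. The labels leave unsaid whether each library is another animal, and every p-value therefore refers to library-to-library spread, which may be technical. HDAC3 is a histone deacetylase of the NCoR and SMRT corepressor complexes. The deletion was aimed at adipocytes, whereas 8 of the 10 genes are markers of endothelial cells, so most of the genes mark cells that it was not aimed at. The libraries are of dissected tissue, and the cells that gave the reads are not known.

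Brown fat is among the most densely vascularised tissues, and its capillaries bring oxygen and fatty acids to the adipocytes. Vascular endothelial growth factor A (Vegfa), secreted largely by the adipocytes, drives vessel growth through the receptor KDR, while FLT1 binds it tightly and limits its supply. VEGF-B (Vegfb) binds FLT1 and neuropilin-1 but not KDR, and in mice its transcript has been linked to mitochondrial genes and to fatty acid uptake by endothelium. Angiopoietin-1 acts on endothelium through TEK (TIE2) and its partner TIE1 and stabilises vessels.

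Values are the authors' RPKM divided by a composition factor per library (trimmed mean of M-values, TMM), here called scaled RPKM, and log2 fold changes are knockout minus control on log2(scaled RPKM + 1). The libraries held 13619308 to 17986134 reads, as recovered from the RPKM. The share of those reads on listed genes was 21.4% to 24.9% in knockout and 17.1% to 20.1% in control libraries, without overlap. Hdac3 itself stood at 2.66, 3.93, 3.62 and 2.93 scaled RPKM in knockout and at 6.91, 7.68, 7.98 and 8.001 in control libraries (limma, adjusted p = 4.33e-05), lower in each library labelled knockout. Of the markers of the labelled tissue, Adipoq stood at 286 to 356 in knockout and 212 to 254 in control libraries, and Ucp1, the uncoupling protein of brown fat, averaged 4.01 ± 2.90 scaled RPKM in knockout and 159 ± 40.3 in control libraries (SD, n = 4 each). All 10 vascular genes had a mean of at least 1 RPKM and were tested. Over the 8764 genes tested, 35.3% passed an adjusted p of 0.05 in limma (Benjamini-Hochberg over all genes, two-sided), 19.4% higher and 15.9% lower in the knockout.

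Of the 10 genes, 2 fell and none rose. Vegfb fell to 41.6% and Cdh5 to 79.4% of its control level, the Cdh5 call being lost under most alternatives, and the other 8 did not pass. In 1 of the 10, Vegfb, the 4 knockout libraries did not overlap the 4 control libraries, against 34.8% of all genes tested. The share of the 10 that fell is near the background of 15.9%.

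**Figure D1:**
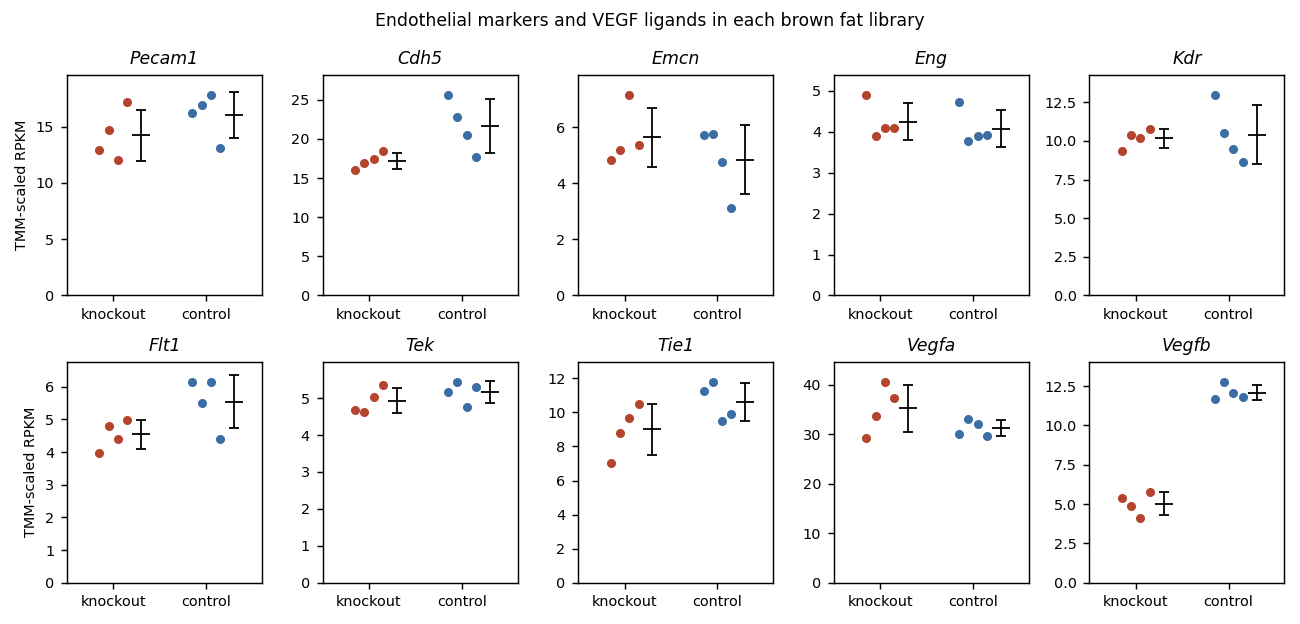
Scaled RPKM of the 10 genes in each library, with knockout libraries on the left and control libraries on the right of each panel (points), and the mean with 1 SD beside them (n = 4 each). Vegfb lies between 4.09 and 5.76 in knockout libraries and between 11.7 and 12.8 in control libraries, while the genotypes overlap in the other 9 panels.

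Vegfb encodes a ligand of FLT1. It stood at 5.40, 4.86, 4.09 and 5.76 scaled RPKM in knockout replicates 4, 5, 19 and 20, against 11.7, 12.8, 12.1 and 11.8 in control replicates 11, 12, 13 and 14. Every knockout library lay below every control library by a wide margin, and the control libraries lay close together. The mean was 5.02 ± 0.726 in knockout and 12.1 ± 0.482 in control libraries (SD, n = 4 each). The log2 fold change was -1.13 with a 95% confidence interval of -1.32 to -0.93 (limma, adjusted p = 1.29e-05), and an exact permutation test (70 arrangements) gave a two-sided p = 0.0286, the smallest this design allows. Among the 8764 genes tested it had the 47th lowest fold change. The values rest on 93 to 143 reads of Vegfb per knockout library and 216 to 270 reads per control library on a gene model of 1282 bases. Vegfb had a log2 fold change of -1.28 in the authors' deposited table. The table holds 1 value per gene, so the splice forms of VEGF-B are not separated.

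The genes that flank Vegfb on chromosome 19 were looked at after its value had been seen. Fkbp2, a peptidyl-prolyl isomerase of the secretory pathway, averaged 5.89 ± 0.512 scaled RPKM in knockout and 6.04 ± 0.446 in control libraries (SD, n = 4 each; log2 fold change -0.03, 95% confidence interval -0.20 to 0.14; limma, adjusted p = 0.767). Dnajc4, a DnaJ family co-chaperone gene on the other side, lay at 9.15 to 10.8 in knockout and 9.04 to 11.04 in control libraries (log2 fold change -0.01, 95% confidence interval -0.18 to 0.17; limma, adjusted p = 0.962). Neither neighbour passed the test, and in both the genotypes overlapped. The ratio of Vegfb to Dnajc4 within a library, which no scaling can change, was 0.388 to 0.532 in knockout and 1.09 to 1.29 in control libraries.

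**Figure D2:**
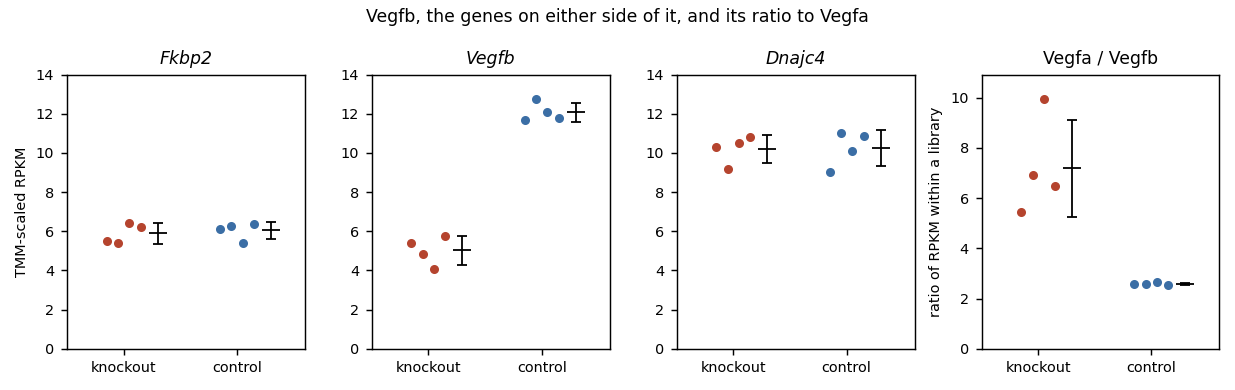
Scaled RPKM of Fkbp2, Vegfb and Dnajc4, neighbours on the chromosome, and the ratio of Vegfa to Vegfb RPKM within a library, with knockout libraries left and control libraries right (points) and the mean with 1 SD (n = 4 each). Vegfb differs between genotypes while both neighbours overlap, and the ratio is 5.44 to 9.93 in knockout libraries and 2.52 to 2.65 in control libraries.

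Vegfa, the main angiogenic ligand, stood at 29.3, 33.7, 40.6 and 37.3 scaled RPKM in knockout replicates 4, 5, 19 and 20, against 30.1, 33.0, 32.1 and 29.7 in control replicates 11 to 14. Knockout replicates 5, 19 and 20 lay above all control libraries and replicate 4 below them, so the genotypes overlapped. The mean was 35.2 ± 4.82 in knockout and 31.2 ± 1.56 in control libraries (SD, n = 4 each), a log2 fold change of 0.16 with a 95% confidence interval of -0.06 to 0.38 (limma, adjusted p = 0.234). Without knockout replicate 4 the log2 fold change was 0.24 (adjusted p = 0.0552), and without knockout replicate 19 it was 0.09. This was the most highly expressed of the 10 genes per length, with 1865 to 3013 reads per library. With the library total alone as scaling it passed as higher, as 31.9% of all genes did (log2 fold change 0.34, adjusted p = 0.0454), and with reads on listed genes as library size the value was 0.002 (adjusted p = 0.989).

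The ligands also differed in their ratio, in which every knockout library lay above every control library. The ratio of Vegfa to Vegfb was 5.44, 6.93, 9.93 and 6.47 in knockout replicates 4, 5, 19 and 20, against 2.58, 2.59, 2.65 and 2.52 in control replicates 11 to 14. The control libraries were almost alike, and the knockout libraries were both higher and more spread out. Vegfb made up 12.7% ± 2.65 of the summed RPKM of the ligands in knockout and 27.9% ± 0.422 in control libraries (SD, n = 4 each). The mean log2 ratio differed by 1.44 (exact permutation test, two-sided p = 0.0286). This was 1 of 10 ratios compared, and its Benjamini-Hochberg adjusted p was 0.143 in the same exact permutation test, so it did not pass after adjustment. With 4 libraries a group no single ratio can reach a smaller raw p. A ratio by itself therefore could not pass after adjustment over 10, whatever its size.

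The first 250 bases upstream of the RefSeq transcription start of both ligand genes are shown because only Vegfb of the pair passed the test; the capitals mark the GC box GGGCGG on either strand, the core of the motif bound by SP1-type factors.
Vegfb, chr19:6987652-6987901: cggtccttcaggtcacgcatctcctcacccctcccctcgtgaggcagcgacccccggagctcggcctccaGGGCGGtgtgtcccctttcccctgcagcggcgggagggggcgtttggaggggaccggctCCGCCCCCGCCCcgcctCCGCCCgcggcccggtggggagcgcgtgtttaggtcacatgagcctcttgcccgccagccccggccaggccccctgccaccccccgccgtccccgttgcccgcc
Vegfa, chr17:46032378-46032627: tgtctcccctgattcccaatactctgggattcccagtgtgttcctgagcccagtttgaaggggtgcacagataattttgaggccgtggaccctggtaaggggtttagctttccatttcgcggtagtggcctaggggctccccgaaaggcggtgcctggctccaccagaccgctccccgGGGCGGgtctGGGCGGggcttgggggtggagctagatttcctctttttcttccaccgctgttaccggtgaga
Both are read 5′ to 3′ on the minus strand of GRCm38.p6, a later build than the mm9 of the expression values, and were matched by symbol. The Vegfb window held 4 GC boxes and had a GC content of 76.4%, and the Vegfa window held 2 GC boxes at 59.2%, while 32.7% of all 32851 RefSeq promoter windows of that length held at least 1. On neither strand did a window hold ACGTG, 1 form of the hypoxia response core (16.6% of all windows). Both also lacked the extended half-site AAGGTCA of estrogen-related receptors (4.08% of all windows). The core form GCGTG was not part of the search, and its share over all windows was not counted. It can be read on both strands of the printed Vegfb window and not in the Vegfa window. Sequence further upstream or within the genes was not searched for ACGTG or AAGGTCA. The short ETS core GGAA, present in 93.4% of all windows, occurred once for Vegfb and 6 times for Vegfa.

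Neither receptor of these ligands passed the test. Flt1 encodes the receptor of both ligands, in a membrane and a soluble form that a value per gene does not separate. It stood at 3.98, 4.81, 4.39 and 5.00 scaled RPKM in knockout replicates 4, 5, 19 and 20, against 6.15, 5.50, 6.15 and 4.403 in control replicates 11 to 14. Control replicates 11, 12 and 13 lay above all knockout libraries, and control replicate 14 lay among them. The log2 fold change was -0.23 with a 95% confidence interval of -0.46 to -0.01 (limma, adjusted p = 0.0962), and without control replicate 14 it was -0.32 and passed (adjusted p = 0.0174). Flt1 had an FDR of 0.0374 and a log2 fold change of -0.31 in the authors' deposited table, where 16.6% of 11234 genes were lower at an FDR under 0.05. Kdr, the signalling receptor of VEGF-A, stood at 9.32, 10.4, 10.2 and 10.8 scaled RPKM in knockout replicates 4, 5, 19 and 20, against 12.99, 10.5, 9.49 and 8.62 in control replicates 11 to 14. The knockout values lay inside the range of the control values, with a log2 fold change of -0.02 and a 95% confidence interval of -0.26 to 0.22 (limma, adjusted p = 0.911). The ratio of Kdr to Flt1 within a library was 2.15 to 2.34 in knockout and 1.55 to 2.11 in control libraries, without overlap (exact permutation test, two-sided p = 0.0286; adjusted over 10 ratios, p = 0.143). Its raw p was also the smallest this design allows, so by itself this ratio could not pass after adjustment.

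Tek and Tie1 encode the angiopoietin receptor and its partner. Tie1 stood at 7.02, 8.78, 9.70 and 10.5 scaled RPKM in knockout replicates 4, 5, 19 and 20, against 11.3, 11.8, 9.49 and 9.92 in control replicates 11 to 14. It averaged 9.01 ± 1.502 scaled RPKM in knockout and 10.6 ± 1.09 in control libraries (SD, n = 4 each), with a log2 fold change of -0.22 and a 95% confidence interval of -0.48 to 0.03 (limma, adjusted p = 0.156); without knockout replicate 4 the fold change was -0.12. Tek stood at 4.69, 4.62, 5.04 and 5.37 in the knockout libraries, against 5.17, 5.44, 4.76 and 5.298 in the control libraries, in the same order. It averaged 4.93 ± 0.344 in knockout and 5.17 ± 0.293 in control libraries, with a log2 fold change of -0.06 and a 95% confidence interval of -0.21 to 0.09 (limma, adjusted p = 0.542). The genotypes overlapped in both genes. The interval of Tek was the narrowest of the 10 genes.

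Cdh5 (VE-cadherin), Pecam1 (CD31), Eng (endoglin) and Emcn (endomucin) encode surface proteins of endothelial cells. VE-cadherin and CD31 hold neighbouring endothelial cells together, endoglin is a coreceptor for ligands of the TGF-beta family, and endomucin is a mucin-like protein of capillary and venous endothelium. Cdh5 stood at 16.03, 16.9, 17.4 and 18.4 scaled RPKM in knockout replicates 4, 5, 19 and 20, against 25.7, 22.8, 20.5 and 17.7 in control replicates 11 to 14. The genotypes met only through control replicate 14, which lay below knockout replicate 20. Cdh5 fell by 0.30 on the log2 scale (95% confidence interval -0.54 to -0.07; limma, adjusted p = 0.0454; exact permutation test, two-sided p = 0.0571). The call was lost in 10 of 16 alternatives, among them no filter on low values, the library total alone and the omission of any library other than control replicate 14. In those 10 the adjusted p was 0.0513 to 0.369 and the log2 fold change -0.34 to -0.13; it was -0.13 with the library total alone and -0.34 to -0.22 without a library. Pecam1 stood at 12.9, 14.7, 12.05 and 17.2 scaled RPKM in knockout libraries, against 16.2, 16.96, 17.8 and 13.1 in control libraries. Knockout replicate 20 and control replicate 14 each lay among the libraries of the other genotype. Pecam1 averaged 14.2 ± 2.28 scaled RPKM in knockout and 16.03 ± 2.05 in control libraries (SD, n = 4 each; log2 fold change -0.17, 95% confidence interval -0.43 to 0.10; limma, adjusted p = 0.316), and without any 1 library the log2 fold change was -0.26 to -0.10. Eng stood at 4.91, 3.895, 4.08 and 4.09 in knockout libraries, against 4.74, 3.77, 3.895 and 3.93 in control libraries, so both genotypes had 1 high library and 3 close together. Eng averaged 4.24 ± 0.453 in knockout and 4.08 ± 0.442 in control libraries (log2 fold change 0.05, 95% confidence interval -0.14 to 0.23; limma, adjusted p = 0.703). Emcn stood at 4.85, 5.18, 7.17 and 5.37 in knockout libraries, against 5.74, 5.77, 4.76 and 3.12 in control libraries, with the highest value in knockout replicate 19 and the lowest in control replicate 14. Emcn averaged 5.64 ± 1.04 in knockout and 4.85 ± 1.24 in control libraries (log2 fold change 0.20, 95% confidence interval -0.16 to 0.56; limma, adjusted p = 0.372) on 70 to 186 reads per library, the widest interval of the 10 genes. Its log2 fold change was 0.04 without control replicate 14 and 0.095 without knockout replicate 19. In dissected tissue, fewer endothelial cells and less RNA of a gene per cell cannot be told apart. The ratios of Cdh5, Eng, Emcn, Kdr, Flt1 and Tek to Pecam1, of Tek to Tie1 and of Vegfa to Kdr overlapped between genotypes, with adjusted p of 0.381 to 0.514 (exact permutation tests, two-sided, adjusted over 10 ratios).

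The median log2 fold change of the 8 endothelial genes was -0.11, beside 0.01 for all genes tested. The median of all genes moved by 0.13 with the library total alone and by -0.12 with reads on listed genes as library size, and the endothelial genes moved with it. With the library total alone their median was 0.05 and none of the 8 passed in either direction, where 31.9% of all genes were higher and 7.17% lower. With reads on listed genes it was -0.26, and 4 of the 8 (Cdh5, Flt1, Tek and Tie1) fell, where 30.1% of all genes were lower and 12.4% higher. Vegfb fell under all 3 scalings, with log2 fold changes of -0.97, -1.13 and -1.27.

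**Figure D3:**
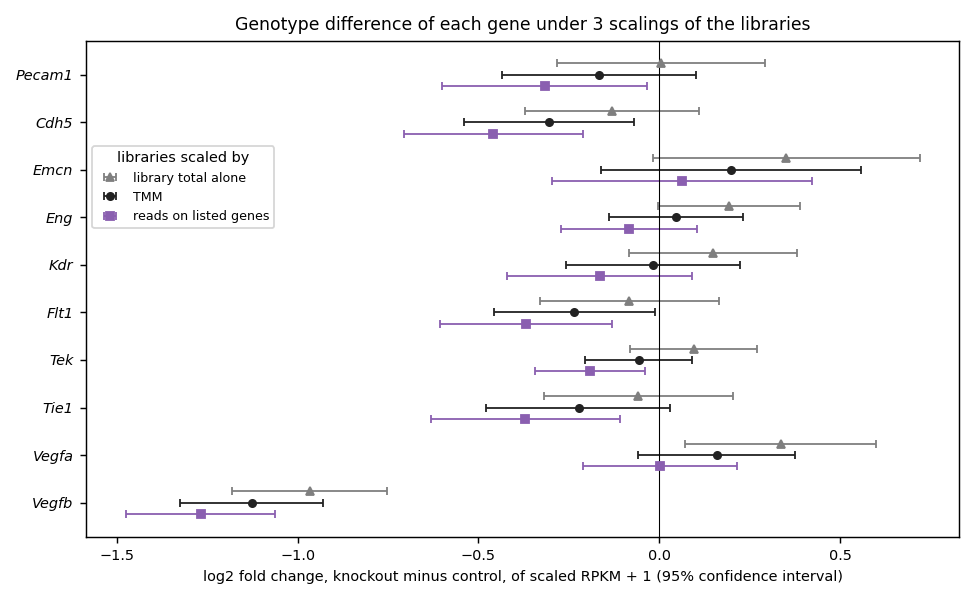
Log2 fold change of each gene, knockout minus control, with its 95% confidence interval (limma), after scaling the libraries by their total alone, by TMM or by reads on listed genes. Vegfb lies between -0.97 and -1.27 under the 3 scalings, and Pecam1, Kdr, Tek and Eng change sign among them.

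Ordered by their level per length in control libraries, the genes ran Vegfa, Cdh5, Pecam1, Vegfb, Tie1, Kdr, Flt1, Tek, Emcn and Eng. Cdh5 and Pecam1 overlapped each other, as did Vegfb and Tie1, Tie1 and Kdr, and each neighbouring pair from Flt1 down to Eng. Vegfb stood among the junction and receptor genes in control libraries, where it overlapped Tie1. In knockout libraries Vegfb no longer overlapped Tie1 and lay in the range of Flt1, Tek, Emcn and Eng.

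Other genes of the VEGF and angiopoietin pathways were taken from a list of 15, of which 7 could be tested; 3 fell and none rose, where 15.9% of all genes tested were lower and 19.4% higher. Nrp2, a neuropilin coreceptor that in endothelium is mainly lymphatic and venous, stood at 3.29, 3.24, 2.38 and 3.32 scaled RPKM in knockout replicates 4, 5, 19 and 20, against 7.62, 5.94, 5.53 and 5.36 in control replicates 11 to 14. Nrp1, the coreceptor that binds both VEGF-A and VEGF-B, stood at 15.5, 15.7, 14.5 and 14.7 in knockout replicates 4, 5, 19 and 20, against 23.0, 21.5, 18.5 and 20.8 in control replicates 11 to 14. Angpt1, the angiopoietin that activates TEK, stood at 3.07, 3.48, 2.41 and 3.67 in knockout replicates 4, 5, 19 and 20, against 6.85, 5.53, 5.04 and 6.09 in control replicates 11 to 14. In all 3 genes every knockout library lay below every control library, as in 16% of all genes tested. Their log2 fold changes were -0.81, -0.44 and -0.73 for Nrp2, Nrp1 and Angpt1 (limma, adjusted p of 0.000437, 0.00141 and 0.000747). They fell in all 16 alternatives run, scalings and left-out libraries included. Neuropilins and angiopoietin-1 are also made outside endothelium, and the table does not say which cells the reads came from. Plcg1, Aplnr, Adamts1 and Timp3 did not pass. However, 1 gene of the list rose without knockout replicate 4 and with the library total alone, where 31.9% of all genes were higher. The median of the 7 genes was -0.21, beside 0.01 for all genes tested.

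Further endothelial markers, 34 genes that are not among the 10, gave 31 tested genes, of which 6 fell and 3 rose, with a median of -0.11. Over all genes tested 15.9% were lower and 19.4% higher, so the number that fell is near the background and the number that rose is under it. The smallest adjusted p-values were those of Palmd, Cldn5 and Sox18. Palmd, palmdelphin, averaged 11.7 ± 2.13 scaled RPKM in knockout and 19.7 ± 0.969 in control libraries (limma, adjusted p = 0.000772). Cldn5, the tight junction protein claudin-5, averaged 3.98 ± 0.745 in knockout and 6.11 ± 0.980 in control libraries (limma, adjusted p = 0.00817). Sox18, a transcription factor of endothelium, averaged 1.61 ± 0.420 in knockout and 2.67 ± 0.456 in control libraries (limma, adjusted p = 0.0108; SD, n = 4 each). Rasip1, Ramp2 and Clec14a, also named after their values were seen, were the others that fell. The genes of the list that rose were Tm4sf1, Nos3 and Podxl, likewise named, with log2 fold changes of 0.24, 0.22 and 0.28. The counts depend on scaling: 5 rose and 2 fell with the library total alone, where 31.9% of all genes were higher and 7.17% lower. None rose and 12 fell with reads on listed genes, where 12.4% of all genes were higher and 30.1% lower. The counts of this list also depend on single libraries. The number that fell was 3 without control replicate 11 and 4 to 9 without any other library, with 9 without knockout replicate 20. The number that rose was 0 without control replicate 12, 1 without any 1 of knockout replicates 4, 19 and 20 and control replicate 14, and 2 to 4 otherwise. Palmd and Sox18 fell in all 16 alternatives and Cldn5 in 15.

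**Figure D4:**
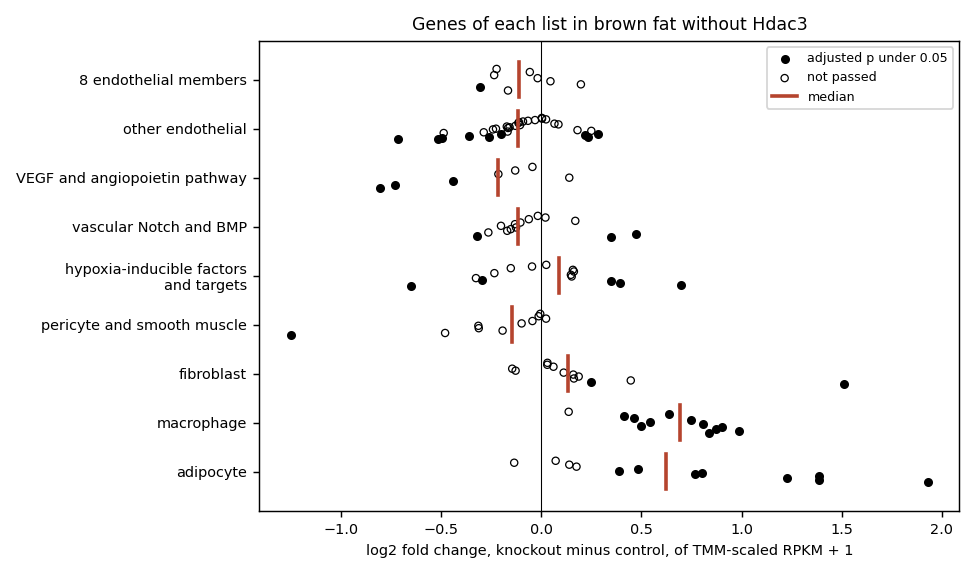
Log2 fold change, knockout minus control, of the tested genes of each list (points; filled where the limma adjusted p is under 0.05) with the median of the list (bar). The 8 endothelial genes and the other endothelial markers have medians of -0.11, against 0.69 for macrophage and 0.62 for adipocyte markers.

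Of the genes of vascular Notch and BMP signalling 3 of 14 passed the test in either direction, and of those of oxygen sensing 5 of 14, beside 35.3% of all genes tested. Of 14 tested Notch and BMP genes 2 rose and 1 fell: Notch1, a receptor of vessel patterning, and Smad5, a BMP signal transducer, rose, with log2 fold changes of 0.47 and 0.35, and Bmpr2, a BMP receptor of endothelium, fell by 0.32 (limma, adjusted p of 0.00377, 0.00219 and 0.00238). Without knockout replicate 4 or 20 or control replicate 12 or 14, 2 genes fell in place of 1. With the library total alone none fell, where 7.17% of all genes were lower. With reads on listed genes 4 did, where 30.1% of all genes were lower. Of 14 tested genes of the hypoxia-inducible factors, their regulators and their targets, which can raise Vegfa transcription when oxygen is low, 3 rose and 2 fell, about the share called over all genes, with a median of 0.09. Bnip3, a mitophagy receptor, averaged 95.7 ± 13.7 scaled RPKM in knockout and 58.2 ± 3.49 in control libraries, and Egln2, an oxygen-sensing prolyl hydroxylase, averaged 8.05 ± 0.718 in knockout and 5.88 ± 0.567 in control libraries. Ndrg1, a hypoxia-induced gene, averaged 2.74 ± 0.253 in knockout and 4.87 ± 0.493 in control libraries (SD, n = 4 each; limma, adjusted p of 0.000631, 0.00461 and 0.000169). With the library total alone 7 rose and 1 fell, where 31.9% of all genes were higher and 7.17% lower. With reads on listed genes 2 rose and 5 fell, where 12.4% of all genes were higher and 30.1% lower. Among 7 tested genes that have been tied to Vegfa in brown fat, 2 rose and 3 fell, where 19.4% of all genes tested were higher and 15.9% lower. Ucp1 fell and Nrip1 and Adrb3 rose with the smallest adjusted p. The coactivators Ppargc1a and Ppargc1b, named after their values were seen, also fell, with log2 fold changes of -0.69 and -0.52. Esrra and Esrrg, estrogen-related receptor genes likewise named, did not pass, with log2 fold changes of 0.11 and -0.11 (limma, adjusted p of 0.448 and 0.284).

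Markers of other cell types were read against the 19.4% of all genes tested that were higher and the 15.9% that were lower. Of 12 tested macrophage markers 11 rose and none fell, and the summed level of the 14 in the table was 97.9 to 118 scaled RPKM in knockout and 49.5 to 63.9 in control libraries. Lyz2 (lysozyme), Ctss (cathepsin S) and C1qa (complement C1q) rose with log2 fold changes of 0.84, 0.99 and 0.88. Of 12 adipocyte markers 8 rose and none fell, with a summed level of 5645 to 6823 in knockout and 2814 to 3108 in control libraries; Fabp4, one of them, is also made by capillary endothelium. Cidec, a lipid droplet protein, Lpl, lipoprotein lipase, and Fabp4 rose with log2 fold changes of 1.93, 1.39 and 1.23. Markers of pericytes and smooth muscle, which surround the vessels, gave 10 tested genes, of which Des (desmin) fell, and 2 fell without knockout replicate 20 or control replicate 11; the summed levels overlapped, at 59.3 to 72.7 in knockout and 71.8 to 86.0 in control libraries. Des averaged 1.79 ± 0.127 scaled RPKM in knockout and 5.66 ± 0.938 in control libraries, while Rgs5, a pericyte gene, averaged 34.2 ± 3.33 in knockout and 39.1 ± 2.74 in control libraries and did not pass (SD, n = 4 each). Of 12 fibroblast markers 2 rose (Dpt and Pdgfra), and 1 gene without any library other than knockout replicate 19 and control replicate 13. Of 3 nerve and Schwann cell markers S100b fell, and of 5 erythroid markers none passed. The lymphatic list had 1 gene in the table, Flt4, at 0.476 to 0.619 scaled RPKM in knockout and 0.514 to 0.639 in control libraries, under the minimum for testing; the lymphocyte list also had 1, Cd79a, under that minimum, and the skeletal muscle list had none. The part of these cell types, and of the higher share of reads on listed genes, in the levels of the vascular genes was not tested.

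Genes of fatty acid transport across endothelium, the process in which VEGF-B has been placed, were chosen after the ligands' values had been seen. Cd36 averaged 190 ± 20.4 scaled RPKM in knockout and 187 ± 10.9 in control libraries, and Slc27a4 averaged 2.24 ± 0.249 in knockout and 1.95 ± 0.192 in control libraries, with overlap in both. Fabp5 averaged 44.3 ± 12.96 in knockout and 11.8 ± 1.34 in control libraries, and Slc27a1 averaged 32.6 ± 6.87 in knockout and 16.1 ± 2.60 in control libraries, without overlap (SD, n = 4 each). Knockout libraries lay above control libraries without overlap in 18.8% of all genes tested. Meox2 and Tcf15, transcription factors that act together in heart capillaries on fatty acid transport, averaged 4.18 ± 0.916 and 1.57 ± 0.303 in knockout against 5.49 ± 0.980 and 2.49 ± 0.561 in control libraries, with overlap in both. By limma over all genes, 3 of the 7 tested genes rose and 1 fell, where 19.4% of all genes tested were higher and 15.9% lower. Fabp5, Slc27a1 and Fabp4 rose, with log2 fold changes of 1.78, 0.96 and 1.23. Fabp4 was also on the list of adipocyte markers, and the cells that gave the reads of these genes are not known. Tcf15 fell by 0.44 on the log2 scale (limma, adjusted p = 0.0197), a call lost with the library total alone and without knockout replicate 4 or control replicate 12, when no gene of the list was lower. Cd36, Slc27a4 and Meox2 did not pass, with log2 fold changes of 0.02, 0.14 and -0.33 (limma, adjusted p of 0.884, 0.197 and 0.0945).

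Genes with a like pattern were sought by the root-mean-square difference of centred log2 values over the 8 libraries, among 8200 genes. The nearest to the average of the 8 endothelial genes were Ncoa3, Kif3b, Paxip1, Hnrnph3 and Plscr3, at 0.034 to 0.048, where the median gene stood at 0.188. None of these 5 passed the genotype test (limma, adjusted p of 0.263 to 0.563). The search largely fixes that outcome, since it picks genes whose values follow the average in the same libraries. The nearest to Vegfa were Plcg1, Alpl and Ddx26b at 0.050 to 0.062. The search for Vegfb was added after its value was seen and gave Crip2 and Pbxip1 as the nearest, at 0.047 and 0.077, beside a median gene at 0.588.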

How the data were processed

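The authors sequenced ribosome-depleted RNA of brown adipose tissue in 8 libraries. The submitters' processing notes name TopHat2, featureCounts, edgeR and build mm9, without versions; the sources used here give no annotation, strand use or gene filter. Going by the file headers, each gene has RPKM in every library as deposited by the authors. The same deposited table has log2 fold change, mean log2 CPM, p-value and FDR columns from the authors. Its fold change has positive sign where RPKM is higher in the knockout, against the order in its name.

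The deposited RPKM values gave whole reads for 100% of values (tolerance 0.001 reads), which supplied library totals and read numbers. A factor shared by all 8 libraries of a gene was corrected in 23 genes and otherwise cannot be seen. Duplicate reads may be included, and read numbers speak for counting error only, not for spread between libraries. RPKM was divided by TMM factors (trim 0.3 and 0.05; 1.00 to 1.12 in knockout and 0.893 to 1.02 in control libraries) computed on those reads. Only genes averaging 1 RPKM or more were tested, with limma 3.58.1 in R 4.3.3 (trend, pseudocount 1, Benjamini-Hochberg, threshold 0.05), after a test on simulated data. Fold changes on this scale understate those of low genes. Single genes and within-library ratios of deposited RPKM were tested by exact permutation. Sequences are from RefSeq, which held windows for 8 of the 10 genes; tables used Python 3.11.15.

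The members and lists were chosen with earlier results of these data known. Named genes are the 10, Hdac3, up to 3 genes per list with the smallest adjusted p, and the nearest genes by pattern; others are said to be named later. Lists and searches added later are marked. Alternatives were scaling, filter, pseudocount, limma voom on recovered reads, the authors' deposited table, and leaving out each library. By RefSeq, Eng overlaps the gene Fpgs, and Cdh5, Emcn, Kdr and Flt1 overlap noncoding genes; since strand use is not stated, reads of overlapping genes may be shared.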

Additional observations from a re-analysis of the deposited data

Results flagged for a closer look

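Within each genotype, 11 of 308 groups of 4 libraries, over 154 named or listed genes, had a highest or lowest library with a wide gap to the rest; about 15.4 would be found by chance, 1 in 20. Of the 10 vascular genes this applied to Eng, at 4.74 scaled RPKM in control replicate 11 against 3.77 to 3.93 in the other control libraries. In control libraries the endothelial receptor gene Eltd1 stood at 6.24 in replicate 11 (others 5.67 to 5.70), the pericyte gene Rgs5 at 43.2 in replicate 11 (others 37.4 to 38.1) and Ndrg1 at 5.61 in replicate 13 (others 4.59 to 4.65). In knockout replicate 19, Nrp2 stood at 2.38 (others 3.24 to 3.32) and Dcn at 29.0 (others 36.4 to 37.7). In knockout replicate 4, Ppargc1b stood at 2.86 (others 4.41 to 4.59), Myh11 at 1.17 (others 2.16 to 2.32) and Abcc9 at 3.40 (others 4.10 to 4.18). In knockout replicate 20, Epas1 stood at 21.1 (others 23.9 to 24.4) and Hif1a at 4.595 (others 4.77 to 4.78).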

How the results depend on the processing

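The fall of Vegfb passed in all 16 alternatives (log2 fold change -1.28 to -0.97, adjusted p at most 9.98e-05), and without any 1 library it was -1.19 to -1.05. With the library total alone 2796 genes were higher and 628 lower across the table, against 1703 and 1392 with TMM, and 1 of the 10 vascular genes rose (Vegfa) and 1 fell. The log2 fold change of Pecam1 was then 0.004, of Kdr 0.15 and of Tek 0.10, and 5 other endothelial markers rose and 2 fell. With reads on listed genes as library size 1088 genes were higher and 2641 lower, 5 of the 10 fell, Eng was at -0.085, and 0 other endothelial markers rose and 12 fell. With no filter, or a mean of at least 0.5 RPKM, 1 of the 10 fell. Leaving out 1 library gave 1477 to 1570 genes higher and 1134 to 1248 lower, 1 to 3 of the 10 lower, 0 to 4 other endothelial markers higher and 3 to 9 lower, Eng at -0.013 to 0.105, Kdr at -0.095 to 0.085, Emcn at 0.04 to 0.28, Tie1 at -0.30 to -0.12, Pecam1 at -0.26 to -0.10 and Vegfa at 0.09 to 0.24. The 10 ratios kept their direction in all 9 alternatives run on them. No paired analysis was possible because the genotypes share no replicate number in the labels. Depth limits Emcn and Vegfb most, with 70 to 270 reads per library.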
